A study of Mus musculus with 37 samples.

Results

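The poly(A)-tail shortening machinery of the mouse oocyte is described here through 10 genes of the 54752 in the deposited tables: Btg4, 7 subunits of the CCR4-NOT complex (Cnot1, Cnot2, Cnot3, Cnot6, Cnot6l, Cnot7 and Cnot8) and both subunits of the PAN complex (Pan2 and Pan3). They were chosen by gene symbol as the machinery of maternal mRNA deadenylation, with earlier results of these data known. All 10 were found and passed the filter on low counts in every comparison. RNA was sequenced from 37 single oocytes of C57BL/6 mice by Smart-seq2, with 1 library per oocyte. Batch A, as the labels name it, held 6 oocytes at the germinal vesicle (GV) stage, arrested in prophase, and 6 at metaphase II (MII), taken from the ampulla after hCG in vivo. Batch B held 10 GV oocytes and 15 at metaphase I (MI), which came from GV oocytes cultured in M16 medium. The females were young and primed with PMSG, and the zona pellucida and polar body were removed from the oocytes. MI and MII oocytes were never in the same batch, so each stage was compared with the GV oocytes of its own batch, and stage, maturation in vivo or in culture, and batch cannot be told apart between MI and MII.

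As background, a growing oocyte stores mRNA with short tails, and after transcription stops the fate of each message depends on tail lengthening and tail shortening. CCR4-NOT removes the tail with nucleases of the CCR4 type (CNOT6, CNOT6L) and of the CAF1 type (CNOT7, CNOT8) held on the scaffold CNOT1, and PAN2-PAN3 trims long tails bound by poly(A)-binding protein. BTG4 binds the CAF1-type nucleases and is known in the mouse for the clearance of maternal mRNA during maturation; its own message, like those of some of its partners, is stored and translated as meiosis resumes.

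Expected counts per oocyte, summed over genes, had a median of 10013962.5 at GV (from 7509812 to 12648571) and 10509080 at MII (from 9930422 to 13988336) in batch A. In batch B the median sum was 11548239 at GV (from 7184193 to 17724506) and 12840682 at MI (from 2709247 to 19390137). Every one of the 10 genes had counts in each of the 37 oocytes, and the smallest was 82 (Pan2 in MI oocyte 15, the library of lowest depth). Some libraries stood apart. MII oocyte 1 had 29816 genes with a count against at most 22598 in the other MII oocytes, and in MI oocytes 4, 8 and 9 the ratio of HTSeq to RSEM counts was 0.648, 0.634 and 0.529 against a median of 1.03 over the 15 MI oocytes. GV oocyte 7 of batch B held the highest or the lowest value of its group for 6 of the 10 genes (highest for Btg4 and Cnot7, lowest for Cnot1, Cnot2, Cnot3 and Cnot6l), as GV oocyte 6 of batch A did for 6 and MII oocyte 3 and MI oocyte 15 for 5 each. Oocyte markers were abundant in every group, with a summed median of 14920 CPM (counts scaled to the same total in each oocyte) in GV and 7816 in MII oocytes of batch A and 4724 in GV and 4146 in MI oocytes of batch B.

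Levels can be set side by side between genes only per length. Here the level of a gene is the sum over its transcripts of expected counts divided by annotated length, scaled to TPM. On this scale Btg4 was the highest of the 10 genes in each group, with a median level of 951 in GV and 964 in MII oocytes of batch A, where 77 and 80 genes had a higher median level. Its level was 1451 in GV and 1186 in MI oocytes of batch B, with 42 and 47 genes higher, and in no group did its range touch that of the next gene. Cnot7 came next in batch A, with a median level of 253 in GV and 310 in MII oocytes. At the other end Cnot6 was lowest in batch A, with a median level of 12.7 in GV and 14.4 in MII oocytes, and Pan2 was lowest in batch B, with 16.2 in GV and 15.0 in MI oocytes.

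Between these ends the order was loose. In GV oocytes of batch A the per-length levels ran from Cnot3 (median 187) through Cnot6l, Cnot8, Cnot2 and Pan3 to Cnot1 (48.4) and Pan2 (28.6), and each of these genes overlapped the next in range except Pan3 and Cnot1. In MII oocytes the order of levels was Cnot6l, Cnot3, Cnot8, Pan3, Cnot2, Cnot1 and Pan2, with a gap only between Cnot2 and Cnot1. In GV oocytes of batch B it was Cnot1 (median level 183), Cnot3, Cnot6l, Cnot2, Pan3 and Cnot7 without a gap, then Cnot8 (57.4) and Cnot6 (18.7), each clear of its upper neighbour. In MI oocytes Cnot6l (188), Cnot3, Cnot1, Pan3, Cnot2 and Cnot7 overlapped in the same way, Cnot8 (50.4) lay clear of Cnot7, and Cnot6 overlapped both Cnot8 and Pan2. By median level Cnot1 had rank 8 of the 10 genes in both groups of batch A, and rank 2 in GV and 4 in MI oocytes of batch B. No test was made between batches.

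**Figure D1:**
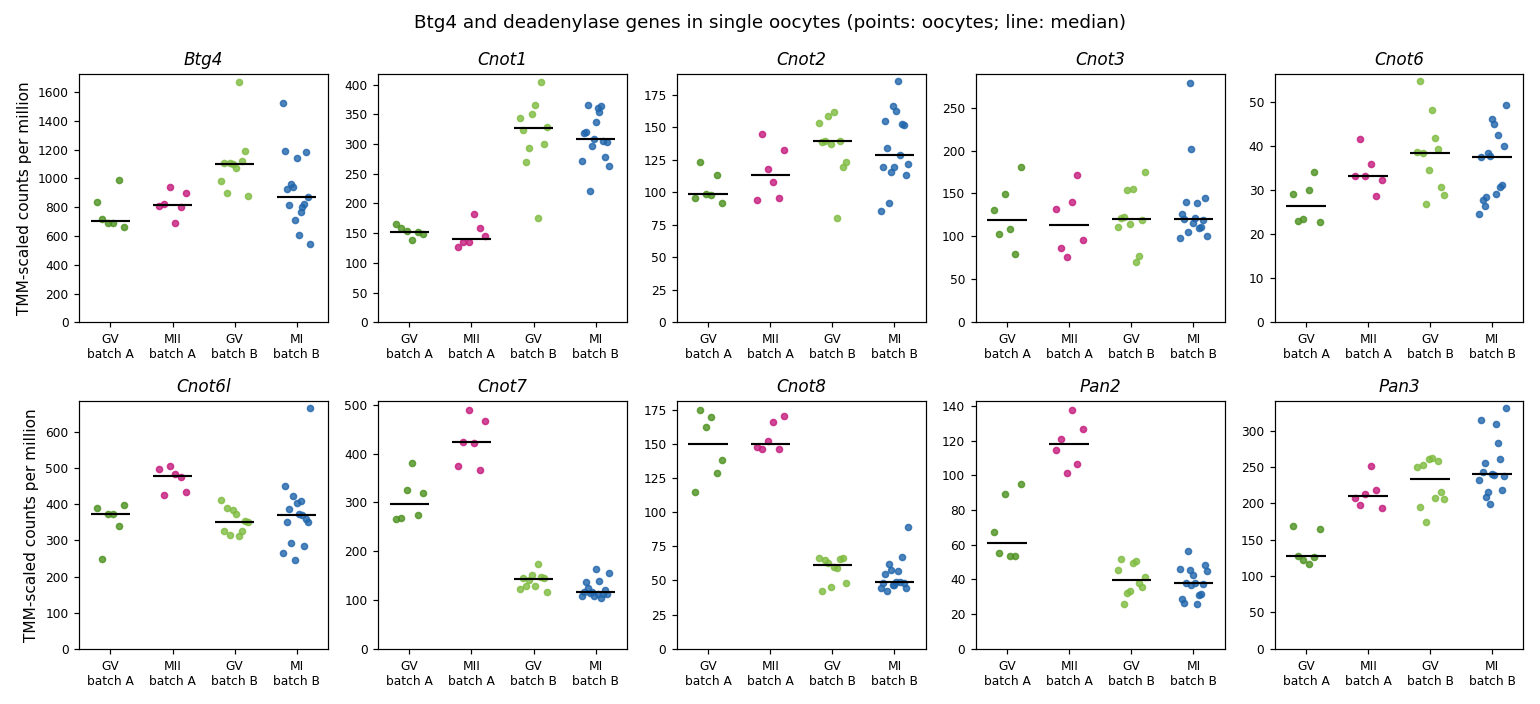
TMM-scaled CPM (vertical axis, from 0) of the 10 genes in each oocyte of the 4 groups, with a point for each oocyte and a line at the group median. All 6 MII oocytes lie above all 6 GV oocytes of batch A for Cnot6l, Pan2 and Pan3 (with scaling to ERCC spike-ins the groups overlap for each of these genes), and GV and MI oocytes of batch B overlap for every gene. The share of all genes that separate in this way is not given, so the separation is not read as particular to these genes.

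The change of each gene between stages was tested with edgeR's quasi-likelihood test over all genes, with p-values adjusted by Benjamini and Hochberg's method and called below 0.05. The labels name no animals, so n counts oocytes, and the p-values measure only the spread between oocytes and are too small if oocytes of a group share an animal. CPM of the 10 genes are after scaling by TMM factors, and log2 fold changes are later stage minus GV.

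Btg4 (ENSMUSG00000032056.10, chr9:51060901-51119875 on GRCm38, plus strand) encodes the adaptor. Its CPM were 659 to 987 at GV in batch A (median 706) and 687 to 943 at MII (median 816). In batch B the median was 1101 among GV oocytes (879 to 1667) and 869 among MI oocytes (540 to 1523). The groups overlapped in both batches: 5 of 6 MII oocytes were above the GV median of batch A, and 11 of 15 MI oocytes were below that of batch B, 8 of them below the lowest GV oocyte. From GV to MII the log2 fold change was 0.11 (standard error, SE, 0.131, 95% interval -0.16 to 0.39, adjusted p 0.571), and it took the other sign with ERCC size factors, at -0.68 (adjusted p 0.0289, the range over 8 alternatives being 0.0289 to 0.889). Over the 12 oocytes of batch A left out in turn, the change with TMM factors ran from 0.08 to 0.20. From GV to MI it was -0.27 (SE 0.135, interval -0.55 to 0.0022, unadjusted p 0.0518, adjusted p 0.459). Without GV oocyte 7, the highest of its group, this was -0.19, and over the 25 oocytes left out in turn it ran from -0.35 to -0.19 with an adjusted p of 0.238 to 0.756.

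Cnot1 (ENSMUSG00000036550.16, chr8:95719451-95807464, minus strand) encodes the scaffold on which the other subunits assemble. Its CPM were 138 to 165 in GV (median 152) and 127 to 182 in MII oocytes (median 140) of batch A, and 175 to 404 in GV (median 326) and 221 to 366 in MI oocytes (median 309) of batch B. Oocytes of the later stage fell inside or close to the GV range in both batches, and 3 of 6 MII oocytes were below the lowest GV oocyte while 1 was above the highest. The log2 fold change was -0.05 (SE 0.12, adjusted p 0.796) at MII and -0.02 (SE 0.111, adjusted p 0.973) at MI. Cnot2 (ENSMUSG00000020166.15, chr10:116485161-116581511, minus strand) and Cnot3 (ENSMUSG00000035632.16, chr7:3645268-3661109, plus strand) encode the NOT module, which binds regulators of the complex. For Cnot2 the log2 fold change was 0.16 (interval -0.14 to 0.45) at MII with TMM factors, where ERCC size factors gave -0.59 (adjusted p 0.0539, in a range of 0.0539 to 0.622 over 8 alternatives), and -0.02 (interval -0.27 to 0.24) at MI. For Cnot3 it was -0.10 (interval -0.56 to 0.37) at MII, and 0.10 without a call on HTSeq counts, and 0.15 (interval -0.18 to 0.48) at MI. With single oocytes left out in turn, the change of Cnot3 ran from -0.24 to 0.04 at MII and from 0.04 to 0.22 at MI. Cnot3 varied most among the MII oocytes of the 10 genes, with a coefficient of variation of 31.5%, and none of these 3 genes passed the test in either batch with TMM factors. ERCC size factors called Cnot1 and Cnot3 lower at MII, with log2 fold changes of -0.81 (adjusted p 0.0126, in a range of 0.0126 to 0.996 over 8 alternatives) and -0.82 (adjusted p 0.0277, in a range of 0.0277 to 0.9502).

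The CCR4-type nucleases are encoded by Cnot6l (ENSMUSG00000034724.18, chr5:96070333-96164171, minus strand) and Cnot6 (ENSMUSG00000020362.13, chr11:49671503-49712723, minus strand). Cnot6l had 249 to 399 CPM at GV in batch A (median 373) and 426 to 505 at MII (median 479), and 313 to 411 in GV (median 352) and 245 to 666 in MI oocytes (median 371) of batch B. All 6 MII oocytes were above the highest GV oocyte, while GV and MI oocytes overlapped and MI oocyte 15 was far above the rest. Here and for the genes below, the share of all genes that separate GV from MII oocytes in this way is not given. From GV to MII Cnot6l rose by 0.41 on the log2 scale with TMM factors (SE 0.128, interval 0.14 to 0.68, adjusted p 0.0326, 6 of 6 MII oocytes above every GV oocyte), and had the other sign without passing, -0.34, with ERCC size factors. At MI the log2 fold change was 0.08 (interval -0.17 to 0.33, adjusted p 0.872). The MII call was lost when GV oocyte 5 or MII oocyte 1, 3, 4 or 5 was left out, with log2 fold changes of 0.40, 0.40, 0.39, 0.40 and 0.41 and adjusted p of 0.0613, 0.0652, 0.0595, 0.0614 and 0.0519, in a range of 0.0321 to 0.0652 over the 12 oocytes left out in turn. It was also lost with no filter, with batch as a covariate, with a block on the oocyte number and on HTSeq counts without MII oocyte 1 (adjusted p 0.165, 0.0615, 0.0740 and 0.0882, in a range of 0.0125 to 0.229 over 8 alternatives).

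Cnot6 had 22.8 to 34.2 CPM in GV (median 26.3) and 28.6 to 41.5 in MII oocytes (median 33.3) of batch A, and 26.8 to 54.7 in GV (median 38.5) and 24.6 to 49.2 in MI oocytes (median 37.4) of batch B. All 6 MII oocytes were above the GV median but only 2 above the highest GV oocyte. The log2 fold change at MII was 0.34 (interval 0.02 to 0.66, unadjusted p 0.0412) and did not pass after adjustment (adjusted p 0.127), and with ERCC size factors it was -0.41. At MI it was -0.11 (interval -0.40 to 0.19).

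The CAF1-type nucleases, the partners that BTG4 binds, are encoded by Cnot7 (ENSMUSG00000031601.16, chr8:40492540-40515847, minus strand) and Cnot8 (ENSMUSG00000020515.13, chr11:58104153-58118594, plus strand). Cnot7 had 266 to 381 CPM in GV (median 296) and 366 to 489 in MII oocytes (median 423) of batch A, and 117 to 175 in GV (median 143) and 104 to 163 in MI oocytes (median 117) of batch B. The MII oocytes were high, with 4 of 6 above the highest GV oocyte and all above the GV median, and the MI oocytes were low, with 13 of 15 below the GV median and 9 below the lowest GV oocyte. From GV to MII Cnot7 rose by 0.47 on the log2 scale with TMM factors (SE 0.129, interval 0.20 to 0.75, adjusted p 0.0171), with the other sign and no call, -0.24, with ERCC size factors. From GV to MI it was -0.19 (SE 0.0988, interval -0.39 to 0.01, unadjusted p 0.0661, adjusted p 0.495), which did not pass. With each of the 12 oocytes of batch A left out in turn the MII change ran from 0.43 to 0.55 and the adjusted p from 0.0105 to 0.0388, but with no filter on low counts the call was lost (0.45, adjusted p 0.104, in a range of 0.00380 to 0.335 over 8 alternatives).

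Cnot8 had 115 to 175 CPM in GV (median 150) and 146 to 170 in MII oocytes (median 150) of batch A, and 42.4 to 66.3 in GV (median 61.2) and 42.3 to 89.2 in MI oocytes (median 48.5) of batch B. Medians were alike in batch A, and 12 of 15 MI oocytes were below the GV median of batch B. The log2 fold change was 0.06 (interval -0.21 to 0.33, adjusted p 0.773) at MII, and -0.64 with ERCC size factors (adjusted p 0.0210, in a range of 0.0210 to 0.917 over 8 alternatives). It was -0.11 (interval -0.37 to 0.14) at MI.

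Pan2 (ENSMUSG00000005682.9, chr10:128303335-128321358, plus strand) encodes the nuclease of the PAN complex. Its CPM were 53.2 to 94.9 in GV (median 61.2) and 101 to 137 in MII oocytes (median 118) of batch A, and 25.6 to 51.4 in GV (median 39.6) and 26.0 to 56.6 in MI oocytes (median 38.1) of batch B. Every MII oocyte was above every GV oocyte of its batch, and MI and GV oocytes covered nearly the same range. Pan2 rose at MII by 0.77 on the log2 scale with TMM factors (SE 0.167, interval 0.42 to 1.13, adjusted p 0.00445), the largest change among the 10 genes, and stood at 0.02 with ERCC size factors (interval -0.52 to 0.57, no call). At MI it was -0.07 (interval -0.36 to 0.23).

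Pan3 (ENSMUSG00000029647.15, chr5:147430161-147548502, plus strand) encodes the partner that links PAN2 to poly(A)-binding protein. Its CPM were 117 to 169 in GV (median 127) and 194 to 251 in MII oocytes (median 210) of batch A, and 174 to 262 in GV (median 233) and 199 to 330 in MI oocytes (median 240) of batch B. Here too all 6 MII oocytes were above all 6 GV oocytes, and 10 of 15 MI oocytes were above the GV median. Pan3 rose at MII by 0.63 on the log2 scale with TMM factors (SE 0.131, interval 0.36 to 0.91, adjusted p 0.00336), with the other sign and no call, -0.14, with ERCC size factors. At MI it was 0.14 (SE 0.104, interval -0.07 to 0.35, adjusted p 0.662).

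In all, 5 of the 10 genes had an unadjusted p under 0.05 from GV to MII with TMM factors, beside 4441 of 12929 genes. After adjustment 4 of the 10 (Cnot6l, Cnot7, Pan2 and Pan3) were called higher at MII and 0 lower, beside 9.06% of the 12929 called higher (1172) and 11.5% called lower (1490). With a fold change over 2 as well, 8.47% of genes were called and 0 of the 10. The median log2 fold change of the 10 genes was 0.25 (from -0.10 to 0.77, 8 of 10 positive) beside 0.01 over all genes tested. DESeq2 and edgeR on HTSeq counts each called the same 4 genes, and on HTSeq counts 6.70% of 13409 genes were called higher. At MI edgeR called 0 of the 10 genes, beside 0.145% of 12419 genes (12 higher and 6 lower), and DESeq2 called 0 of the 10 beside 177 genes. At an unadjusted p under 0.05 edgeR had 0 of the 10 genes, beside 1371 of the 12419. With single oocytes of batch B left out edgeR called 0 (without MI oocyte 7) to 97 genes (without MI oocyte 9), and 0 of the 10 each time. The median there was -0.04 (from -0.27 to 0.15, 7 of 10 negative) beside 0.02 over all genes tested. Without MII oocyte 1 the calls at MII were 3, Cnot6l being lost, and without MI oocyte 15, or without MI oocytes 4, 8 and 9, the calls at MI were still 0.

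Whether these genes rose depends on the scale. TMM factors set most genes to no change, whereas scaling to the ERCC spike-ins, which were at 0.591% to 1.47% of counts in GV and 0.979% to 1.4% in MII oocytes of batch A, measures each gene against an amount of added RNA that is assumed constant. The median log2 fold change over all genes was -0.72 with ERCC size factors against 0.01 with TMM, and calls went from 1172 higher and 1490 lower to 144 higher and 5452 lower. The 10 genes then had a median of -0.50, with 0 called higher and 4 lower (Btg4, Cnot1, Cnot3 and Cnot8), beside 42.2% of genes called lower, a share close to that of the 10 genes. In batch B spike-in sequences were at most 0.000277% of counts, and no such scaling was made.

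Per 1000 spike-in counts, Btg4 was at 48.3 to 152 in GV (median 90.3) and 56.6 to 70.0 in MII oocytes (median 62.3). Pan2 was at 3.76 to 12.4 in GV (median 9.51) and 6.68 to 11.3 in MII oocytes (median 8.88). Cnot7 was at 26.8 to 48.4 in GV (median 39.2) and 28.9 to 36.2 in MII oocytes (median 32.0). On this scale the GV oocytes were spread widely, with GV oocyte 4 lowest for each of the 10 genes, and no gene separated GV from MII oocytes. The coefficient of variation of Btg4 was 41.2% in GV and 7.40% in MII oocytes per spike-in count, against 16.4% and 10.7% for CPM. Whether the spike-ins or the oocytes' RNA content varied was not tested.

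**Figure D2:**
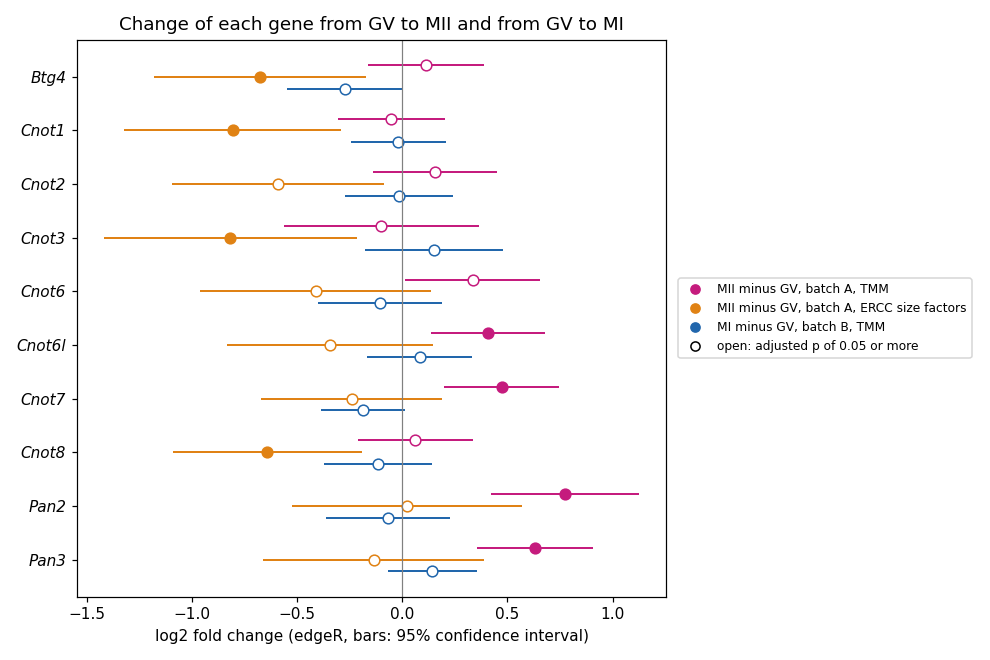
Log2 fold change (horizontal axis, edgeR, bars giving 95% confidence intervals) of each of the 10 genes from GV to MII in batch A with TMM factors and with ERCC size factors, and from GV to MI in batch B with TMM factors. Filled points passed an adjusted p of 0.05. Cnot6l, Cnot7, Pan2 and Pan3 are called higher at MII with TMM factors, where ERCC size factors put Pan2 at 0.02 and the other 3 below 0, and no gene is called at MI.

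The study asked how transcripts change over maturation, so the MII change and the MI change were also tested against each other in a fit of all 37 oocytes with a mean for each group. The difference, MII change minus MI change, was called for 3 of the 10 genes, all higher, beside 3.10% of 15083 genes called higher. An unadjusted p under 0.05 was found for 6 of the 10, beside 2671 of the 15083. Cnot7 differed by 0.73 on the log2 scale (SE 0.163, interval 0.40 to 1.06, adjusted p 0.00457). Pan2 differed by 0.91 (SE 0.239, interval 0.43 to 1.39, adjusted p 0.0162). Pan3 differed by 0.56 (SE 0.172, interval 0.21 to 0.91, adjusted p 0.0447), and without MII oocyte 1 the difference was 0.60 with an adjusted p of 0.0503, no longer a call (range over 3 other alternatives 0.0222 to 0.201). With no filter on low counts all 3 calls were lost, with differences of 0.67, 0.85 and 0.50 and adjusted p of 0.0531, 0.0531 and 0.201 for Cnot7, Pan2 and Pan3, and that of Pan3 was lost on HTSeq counts without MI oocytes 4, 8 and 9 (0.52, adjusted p 0.146). Over the same 3 alternatives, DESeq2 among them, the adjusted p ran from 0.000330 to 0.0531 for Cnot7 and from 0.00394 to 0.0531 for Pan2. For Btg4 the difference was 0.46 (interval 0.03 to 0.89, unadjusted p 0.0372) and did not pass after adjustment (adjusted p 0.243). The median difference of the 10 genes was 0.43, with 9 of 10 above 0, beside 0.04 over all genes tested. TMM factors enter both changes, and ERCC size factors were not used in this fit.

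The ratio of a gene to its paralogue or partner within an oocyte does not depend on scaling between libraries. The per-length ratio of Cnot7 to Cnot8 was 1.3 to 1.91 in GV (median 1.85) and 2.07 to 2.68 in MII oocytes (median 2.20) of batch A, so that all 6 MII oocytes were above the highest GV oocyte. The mean log2 ratio was 0.39 higher (SE 0.107), with a two-sided exact permutation p of 0.002165, the smallest that 924 assignments allow, and 0.0130 adjusted over 6 ratio tests. On HTSeq gene counts the difference was 0.33 and did not pass (exact permutation, adjusted p 0.0779 over 6 ratio tests, in which batch B was without MI oocytes 4, 8 and 9). On the per-length values without MII oocyte 1 it was 0.42 (adjusted p 0.0130), the range over these 2 alternatives being 0.0130 to 0.0779. In batch B the ratio had a median of 1.99 in GV and 2.22 in MI oocytes, a log2 difference of 0.07 (permutation test, adjusted p 0.775).

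For the CCR4 pair, the ratio of Cnot6l to Cnot6 had a median of 11.5 in GV and 11.5 in MII oocytes (log2 difference 0.07, SE 0.183, exact permutation p 0.839 after adjustment) and of 8.40 in GV and 10.3 in MI oocytes (log2 difference 0.03, permutation p 0.855 after adjustment). The ratio of Pan2 to Pan3 had a median of 0.319 in GV and 0.375 in MII oocytes (log2 difference 0.18, exact permutation p 0.662 after adjustment) and of 0.136 in GV and 0.116 in MI oocytes (log2 difference -0.21, permutation p 0.662 after adjustment). All 6 MII oocytes were above the GV median of the Pan2 to Pan3 ratio, but none was above the highest GV oocyte. Neither pair passed in either batch.

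RSEM also splits each gene among annotated transcripts, 109 for the 10 genes, of which 48 passed the filter in batch A and 57 in batch B. From GV to MII 7 of the 48 had an unadjusted p under 0.05, beside 5438 of 22461 transcripts. After adjustment 3 were called higher and 0 lower, beside 3.49% of the 22461 called higher. DESeq2 called 6, these 3 with Cnot6l-210 and the protein-coding Pan3-202 (1.09) and Pan3-210 (1.15), which edgeR did not call. Over all transcripts DESeq2 called 3419 in either direction, against 2089 by edgeR. Cnot7-201 (protein coding) had 81.2 to 133 CPM in GV (median 112) and 153 to 243 in MII oocytes (median 191) and rose by 0.83 on the log2 scale (SE 0.149, adjusted p 0.00449). Pan2-203 (protein coding) had 18.4 to 52.7 CPM in GV (median 38.6) and 72.0 to 85.2 in MII oocytes (median 77.6) and rose by 1.10 (SE 0.251, adjusted p 0.0151). Pan3-206, annotated as a retained intron, had 80.3 to 125 CPM in GV (median 88.9) and 128 to 163 in MII oocytes (median 144) and rose by 0.59 (SE 0.126, adjusted p 0.0107). For each of the 3 transcripts, named because they were called, all 6 MII oocytes were above all 6 GV oocytes. The share of all transcripts that separate in this way is not given. These changes are with TMM factors, and ERCC size factors were not used on transcripts. For the genes Cnot7, Pan2 and Pan3 those factors gave -0.24, 0.02 and -0.14 without a call. The Pan3-206 call was lost with no filter (0.56, adjusted p 0.111) and with a block on the oocyte number (0.61, adjusted p 0.0659), in a range of 0.000294 to 0.111 over 3 alternatives, and the block also ended that of Pan2-203 (1.21, adjusted p 0.0576, in a range of 0.000769 to 0.0576). The other main transcript of Cnot7, Cnot7-203, was at 0.18 (adjusted p 0.472). The most abundant transcripts of the other genes did not pass at MII by edgeR: Btg4-201 was at 0.10, Cnot2-203 at 0.22, Cnot3-201 at 0.15, Cnot6-203 at 0.24, Cnot6l-210 at 0.34 (adjusted p 0.0639, but called by DESeq2 at 0.0123, in a range of 0.0123 to 0.262 over 3 alternatives) and Cnot8-201 at 0.04. For Cnot1 it was the retained intron Cnot1-207, at 1.25 with a SE of 1.00 (adjusted p 0.506).

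From GV to MI edgeR called 0 of the 57 transcripts, with 5 at an unadjusted p under 0.05 and 0 called by DESeq2, beside 0% of 22717 transcripts called by edgeR (1615 at an unadjusted p under 0.05) and 120 by DESeq2. The largest fall among the most abundant transcripts was that of Cnot7-203, -0.49 (SE 0.181, unadjusted p 0.0120, adjusted p 0.510), for which 44.0 to 115 CPM in GV (median 80.5) stood beside 20.9 to 86.3 in MI oocytes (median 52.9). Shares of a gene's transcripts were tested with edgeR's diffSpliceDGE. From GV to MII it called 0 of the 10 genes (1 at an unadjusted p under 0.05, Cnot7 at 0.0331, adjusted p 0.266), beside 5.26% of 5477 genes (827 at an unadjusted p under 0.05). From GV to MI it called 0 of the 10 (1 at an unadjusted p under 0.05, Cnot3 at 0.0275, adjusted p 0.692), beside 0.0903% of 5535 genes, and no other tool was run on shares.

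The genes differed in how much of their per-length level came from transcripts annotated as protein coding. For Btg4 it was 100% in every oocyte, with Btg4-201 alone at a median of 96.9% in GV and 95.7% in MII oocytes of batch A. Cnot8 was at a median of 100% and Pan2 at 93.1% or more in each group. Pan3 was low, with a median of 23.5% in GV and 24.1% in MII oocytes of batch A and 23.9% in GV and 19.3% in MI oocytes of batch B, with the retained intron Pan3-206 holding a median of 65.2%, 65.4%, 65.3% and 65.4% of its level in these groups. For Cnot1 the protein-coding share had a median of 73.5% in GV and 49.6% in MII oocytes of batch A but 24.4% in GV and 21.4% in MI oocytes of batch B. For Cnot6l it went the other way between batches, with 39.2% and 40.0% in batch A and 81.3% and 88.4% in batch B. For Cnot3 the median was 24.9% in GV and 44.5% in MII oocytes of batch A and 44.0% in GV and 55.9% in MI oocytes of batch B. These shares were not tested, and most of the level of Pan3 was assigned to a transcript annotated without a protein. Whether counting used the strand is not stated, so the share of counts from genes that overlap a member is also unknown. Protein-coding genes on the opposite strand overlap Btg4 (Layn and 4833427G06Rik), Cnot3 (Leng1) and Cnot7 (Zdhhc2 and Vps37a).

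Weighting each protein-coding transcript by its level gave the mean length of the annotated 3′ UTR, where signals for tail length lie. It had a median of 516 bases in GV and 512 in MII oocytes of batch A for Btg4, and 517 in GV and 519 in MI oocytes of batch B. Cnot7 and Cnot8 stood at medians of 1448 and 1009 bases in all 4 groups. Cnot6l had the longest, with a median of 5959 bases in GV and 5609 in MII oocytes of batch A and 2984 in GV and 2639 in MI oocytes of batch B, and the ranges of GV oocytes of batch A (5026 to 6361) and of batch B (2331 to 4493) did not overlap. The stages overlapped within both batches for each of the 10 genes. For Cnot8 the length was 1009 bases in every oocyte, and for Cnot1, Cnot3 and Pan2 it spanned only a few bases. Overlap therefore carries little information for these genes, and ends outside the annotation cannot be seen by this measure. These lengths follow RSEM's choice among annotated transcripts and were not tested.

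Messages that are stored and later translated often carry a cytoplasmic polyadenylation element near the AATAAA signal, so the last 100 bases of the most abundant protein-coding transcript of each of the 10 genes were searched on the transcript strand for TTTTAT, for TTTTAAT, for AATAAA or for ATTAAA, of which TTTTAAT can overlap with AATAAA. Over 6140 protein-coding transcripts of genes with a mean of at least 10 CPM, 17.1% held TTTTAT, 6.69% held TTTTAAT and 22.4% either, and 67.3% held AATAAA, 22.9% held ATTAAA and 82.7% either. Of the 10 genes, 4 held TTTTAT, 2 held TTTTAAT and 6 either, and 8 held AATAAA, 1 held ATTAAA and 8 either. The 6 windows with TTTTAT or TTTTAAT are shown because they are where the machinery's own messages carry such letters, 5′ to 3′ on the transcript strand, on GRCm38 (GENCODE M21), with these motifs in capitals. Btg4 is at chr9:51119797-51119826 (plus), Cnot1 at chr8:95719504-95719533 (minus), Cnot3 at chr7:3661075-3661104 (plus), Cnot8 at chr11:58118552-58118581 (plus), Pan2 at chr10:128321319-128321348 (plus) and Pan3 at chr5:147548467-147548496 (plus).
Btg4-201: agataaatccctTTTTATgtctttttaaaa
Cnot1-203: aagatgtattgaTTTTATatatgtgagtac
Cnot3-201: atttatgAATAAAtagTTTTATatgacggc
Cnot8-201: tatgtTTTTAATtttgtaaAATAAAgattg
Pan2-203: ttataaAATAAAagtatTTTTATctcatta
Pan3-202: tattTTTTAATAAAgaattgcagaAATAAA

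The element began 67 bases from the end of Btg4-201, and no AATAAA or ATTAAA was found in its window or in that of Cnot1-203. In Pan3-202 the TTTTAAT overlaps an AATAAA, and Pan2-203 held 3 copies of TTTTAT, of which 1 is shown. The windows of Cnot2, Cnot6, Cnot6l and Cnot7 held neither TTTTAT nor TTTTAAT. The genes called higher at MII with TMM factors thus fall in both kinds, Pan2 and Pan3 with the letters and Cnot6l and Cnot7 without them in these windows, and with ERCC size factors none of the 4 was called. A match describes letters and is not evidence of a working element, and other annotated ends of these genes were not searched.

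Over the 37 oocytes, with each batch centred on the mean of its GV oocytes, the genes whose log2 CPM went most closely with that of Btg4 among 6597 genes with a mean of at least 10 CPM were Pfdn4 (Pearson's r 0.88), Oosp3 (0.86), Dpy30 (0.83), Omt2b (0.82) and Tmem128 (0.80). Within batch A alone r was 0.79, 0.82, 0.68, 0.74 and 0.45 for these genes in that order, and within batch B 0.89, 0.84, 0.85, 0.86 and 0.81. The median r with Btg4 over all these genes was -0.01. Of the other 9 members Cnot7 had the highest r with Btg4, 0.43 (rank 532 among these genes), and Cnot3 the lowest, -0.38 (rank 5931). GV oocyte 7 of batch B was the highest of its group for Btg4 and Cnot7 and the lowest for Cnot3, and r without it is not given. Oocytes differ in depth, and these values describe likeness only.

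Other genes of the pathway, from lists of related functions, were read from the same fit of GV against MII, in which 9.06% of genes were called higher and 11.5% lower. Of 4 other CCR4-NOT subunits 2 were lower and 0 higher (median -0.49): Cnot9 changed by -0.77 (SE 0.184, adjusted p 0.00856) and Cnot10 by -1.10 (SE 0.219, adjusted p 0.00257). Of 5 BTG and TOB family genes 1 was lower, Tob1, by -0.86 (adjusted p 0.0254, median of the list 0.47), and this call was lost without GV oocyte 5 (-0.59) and without MII oocyte 3 (-0.80). Among 7 other deadenylases Pnldc1 fell by 1.52 (adjusted p 0.000933) and Noct rose by 0.41 (adjusted p 0.0270) with TMM factors but stood at -0.33 with ERCC size factors, and the Noct call was lost without MII oocyte 1 (0.36) and MII oocyte 4 (0.40). The median of that list was 0.24. Of 13 recruiters of deadenylases tested 1 was called, Tnrc6a, which rose by 0.70 (adjusted p 0.0207) with TMM factors and stood at -0.023 with ERCC size factors (median of the list 0.24).

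Among 6 binders of the cap or the poly(A) tail 1 was lower, Pabpc1, by -1.65 (adjusted p 0.00724, median of the list -0.21). Of 8 poly(A) polymerases and terminal uridylyltransferases tested 2 were lower and 0 higher (median 0.25): Papolg fell by 0.57 (adjusted p 0.00930), and Tut7 was at -1.44 (adjusted p 0.00110) on RSEM counts but at 0.16 without a call on HTSeq counts. Of 14 exosome and associated nuclease genes tested 2 were lower (median 0.03): Exosc1 fell by 1.09 (adjusted p 0.00400) and Exosc5 fell by 0.93 (adjusted p 0.0320). The Exosc5 call was lost without GV oocytes 3, 4 or 5 (-0.87, -0.65 and -0.92) and without MII oocytes 1, 3, 4 or 5 (-0.90, -0.89, -0.92 and -0.85). Nanos3, Tut4 and Exosc6 did not pass the filter in batch A. Most of the calls named from these lists were lost under some alternative. Batch as a covariate ended those of Cnot9, Tob1, Pnldc1, Tnrc6a, Papolg, Tut7, Exosc1 and Exosc5, a block on the oocyte number ended those of Tob1, Noct, Tnrc6a and Exosc5, no filter ended those of Noct and Tnrc6a, HTSeq counts ended that of Tob1, and HTSeq counts without MII oocyte 1 ended those of Tob1, Noct, Papolg and Exosc5. With TMM factors 4 of the 10 genes were thus called higher and 2 of the 4 other CCR4-NOT subunits lower. With ERCC size factors 4 of the 10 and 4 of the 4 were called lower, beside 42.2% of all genes tested. In the other lists, ERCC size factors called lower 1 of 5 BTG and TOB family genes, 3 of 7 other deadenylases and 2 of 13 recruiters. Also lower were 5 of 6 binders of the cap or tail, 3 of 8 polymerases and transferases and 6 of 14 exosome and nuclease genes, and none was higher. These counts stand beside the same 42.2% of all genes and were not tested against it.

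Markers of other cells were low. Of 18 cumulus and granulosa markers 3 could be tested in batch A, with adjusted p of 0.270 or more by edgeR with TMM factors (Nr5a2 at 0.10, adjusted p 0.770, but -0.70 without a call with ERCC size factors, which called 1 of the 3 lower, Kitl, named after its values were seen, at -1.25), and their summed CPM had a median of 57.7 in GV and 37.1 in MII oocytes, the most abundant being Cyp19a1, while Amh and Tnfaip6 were at a median of 0 in all 4 groups. In batch B the sum had a median of 42.8 in GV and 40.3 in MI oocytes, and Fshr, Amh, Foxl2, Inha and Fst were at a median of 0 in both stages. Of 6 markers tested there 2 were lower at MI, Gja1 by -3.42 and Ccnd2 by -3.69 (both with an adjusted p of 0.0174 by edgeR, named after their values were seen). Over all 12419 genes 0.145% were called at MI (12 higher and 6 lower). The other 4 markers were not called and ran from -0.22 (Cyp19a1) to 1.21 (Has2), and the median of the 6 was -0.085. Blood and immune markers summed to a median of 0.112 in GV and 0.400 in MII oocytes of batch A, with 14.6 in MII oocyte 1, and to 4.74 in GV and 2.53 in MI oocytes of batch B, with Hbb-bs the most abundant there, and 0 of 8 could be tested in batch A. Among 10 oocyte markers 6 were lower at MII and 0 higher (median -0.68), beside 11.5% of all genes called lower and 9.06% higher. Of these markers Zp3 fell by 2.21, Zp2 fell by 2.14 and Zp1 fell by 1.39 on the log2 scale. With ERCC size factors 9 of the 10 were lower, beside 42.2% of all genes. The part of any of these in the changes of the 10 genes was not tested.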

How the data were processed

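The authors deposited, for each oocyte, a count per gene from HTSeq and, from RSEM, an expected count per gene and per transcript, all without normalization. Per the submitters' processing notes, reads were trimmed with Trim Galore 0.6.4, aligned with STAR 2.7.6a and counted with HTSeq 0.12.4, or estimated with RSEM 1.3.1, on mm10 with GENCODE annotation and ERCC sequences; strandedness is not stated. Symbols, positions, lengths and 3′ ends came from GENCODE M21 (GRCm38), a later release than that behind the counts, in which 138789 of 138835 transcripts had a length. The 10 members and the gene lists were chosen with earlier results of these data known.

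Software was edgeR 4.0.16 and DESeq2 1.42.0 (with limma 3.58.1 and version 1.17.8 of data.table) in R 4.3.3, and scipy 1.17.1, pandas 2.3.3, numpy 2.4.6 and, for plots, matplotlib 3.10.9 in Python 3.11.15. Expected counts were rounded and the 92 spike-ins left out. Features passing filterByExpr (smallest count 10, smallest total 15) went into edgeR's quasi-likelihood test (TMM, Benjamini-Hochberg adjusted p below 0.05) between GV_A and MII_A, between GV_B and MI_B, and for the difference of these changes. The labels name no animals, so oocytes were the replicates, and p-values cover only the spread between oocytes. Transcript shares were tested with diffSpliceDGE, and log2 ratios by two-sided permutation (exact in batch A, 100000 resamples in batch B). The tests were tried on simulated data.

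Alternatives were DESeq2, RLE and ERCC size factors, no filter, HTSeq counts, batch as a covariate, the sample number as a block, and leaving out oocytes. Of each other list the text names at most 3 genes per direction with the largest change among those called at MII, or, where none was called, the gene of highest mean CPM. It also names the most abundant transcript of each member, every member transcript called, and the 5 genes most correlated with Btg4. Log2 CPM used a prior count of 2. Depth was 2709247 to 19390137 counts per oocyte. Reads carried no molecular identifiers, so any precision read from the depth covers counting error only. Reads, poly(A)-tail lengths and protein were not analysed here.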

Additional observations from a re-analysis of the deposited data

Results flagged for a closer look

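Among 39 sets of 6 or 10 oocytes (each gene's CPM and each ratio within a group), a value far from the rest, by the gap to its neighbour over the whole range, was found in 2. Chance gives about 1 in 20 sets, and 2 of 39 is close to that share. Both belong to GV oocyte 7 of batch B. Its Btg4 value, 1667 CPM, lay above the next highest, 1192, by 0.602 of the range. Its Cnot2 value, 80.2 CPM, lay below the next lowest, 119.6, by 0.485 of the range. Without this oocyte the change from GV to MI was -0.19 for Btg4 and -0.08 for Cnot2, and neither was called with or without it. Its depth was 10028605 counts and 17043 genes had a count, both inside the range of its group, while its ratio of HTSeq to RSEM counts, 0.95, was the lowest of the 10 (next 1.087).

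The change at MII minus that at MI differed by a test of the difference itself for Cnot7 (0.73 on the log2 scale), Pan2 (0.91) and Pan3 (0.56), but with no filter on low counts all 3 calls were lost, and that of Pan3 also without MII oocyte 1 (0.60) and on HTSeq counts without MI oocytes 4, 8 and 9 (0.52). MI and MII oocytes came from different batches and from culture or in vivo maturation, and these cannot be told apart from stage.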

How the results depend on the processing

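Direction and side of the threshold were kept by Pan2 and Pan3 at MII with DESeq2, RLE size factors, HTSeq counts, a batch covariate, a block on the sample number, no filter and each of 12 oocytes left out in turn. With no filter 2 of the 10 genes were called at MII, Cnot6l and Cnot7 (0.38 and 0.45) being lost. Cnot6l was also lost with the batch covariate (0.46), the block (0.42) and HTSeq counts without MII oocyte 1 (0.42). With ERCC size factors 0 of the 10 genes were called higher and 4 lower. Among genes whose change at MII is given here, values that changed sign were Btg4 -0.68, Cnot6l -0.34, Cnot7 -0.24, Cnot8 -0.64, Pan3 -0.14, Noct -0.33 and Tnrc6a -0.023 and, called on neither scale, Cnot2 -0.59, Cnot6 -0.41 and Nr5a2 -0.70. Other genes of the lists, not named here, also changed sign with these factors, and some of them were then called lower. Tut7 changed sign on HTSeq counts (0.16, and 0.14 without MII oocyte 1). For the difference of MII and MI changes, no filter called 0 of the 10 genes (Cnot7 0.67, Pan2 0.85, Pan3 0.50), and HTSeq counts without MI oocytes 4, 8 and 9 lost Pan3 (0.52). DESeq2 called 6 member transcripts at MII in place of 3 (with Cnot6l-210, Pan3-202 and Pan3-210), and no filter lost Pan3-206 (0.56). On HTSeq counts, with batch B without MI oocytes 4, 8 and 9, the ratio of Cnot7 to Cnot8 differed by 0.33 in batch A and 0 ratios passed. The causes were not tested.

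Calls over all genes at MII were 1234 with the batch covariate, 5596 with ERCC size factors and 1585 on HTSeq counts without MII oocyte 1. At MI they were 177 with DESeq2, 44 with no filter, 149 with the covariate, 0 on HTSeq counts with or without MI oocytes 4, 8 and 9, and 39 on RSEM counts without these. Leaving out each of 25 oocytes gave 0 (MI oocyte 7) to 97 (MI oocyte 9) calls, with 0 of the 10 genes called each time. For the difference they were 1600 with no filter, 512 when MII oocyte 1 was left out and 374 on HTSeq counts without MI oocytes 4, 8 and 9. Over transcripts they were 3419 with DESeq2 at MII, and 2 with no filter and 120 with DESeq2 at MI.

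The numbers in the labels did not pair GV with later oocytes: over 6 pairs in batch A and 10 in batch B the correlation of paired oocytes was -0.327 to 0.341 and -0.146 to 0.107, with 1 and 0 pairs best matched to their own number. A block on that number gave 1587 genes at MII and 0 at MI, 627 transcripts at MII, and 1 member transcript, Cnot7-201, with Pan2-203 and Pan3-206 lost. It also ended the calls of Cnot6l, Tob1, Noct, Tnrc6a and Exosc5, and the batch covariate those of Cnot9, Tob1, Pnldc1, Tnrc6a, Papolg, Tut7, Exosc1 and Exosc5.

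Limits: each oocyte gave 1 library of amplified cDNA, and the part that tail length has in oligo(dT) priming was not tested. Spike-in scaling was possible in batch A alone. Splits among transcripts are estimates.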
